A study of Rattus norvegicus with 12 samples.

Results

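The 42 genes described here encode proteins that hepatocytes make for the blood plasma or that control them: acute phase proteins, fibrinogen chains, plasma carriers, complement components and complement regulators. They were taken from a list by gene name, and the probe set that was brightest on average over the 12 arrays stood for each gene. Of the 42 genes, 40 had a probe set of their own, out of 14217 genes named on the array. Cd59 was found under the array's symbol Cd59b, of which it is a synonym. C2 and Cfb, the homologous proteases of the classical and alternative pathways, were named only together, on 4 shared probe sets. They are therefore not told apart and stand outside the counts of 40.

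The study measured total RNA of primary hepatocytes from Wistar rats, freed with collagenase, purified on Percoll and used on the day after isolation. The cells received rat interferon alpha at 250 u/ml for 3 h or for 6 h, and control cultures went without it for the same times. Each of the 4 groups had 3 Affymetrix arrays, numbered 1 to 3 and called biological replicates in the labels, which do not say whether a number stands for an animal, a preparation or a day. All values are log2 values of the authors' robust multi-array average (RMA).

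In the acute phase response the liver changes its secreted proteins after injury or infection. Interleukin-6, acting through STAT3, and interleukin-1, acting through NF-kB and C/EBP factors, raise the positive acute phase proteins, while albumin and transthyretin decline. Complement is a cascade of plasma proteases that coats targets with C3 fragments and ends in the membrane attack complex, built from C5b, C6, C7, C8 and C9. Type I interferon acts through its own cell surface receptor and raises antiviral genes.

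The treatment was visible in the reference genes of interferon signalling. Of 12 such genes measured, 11 rose at 6 h in the fit without the replicate number and 12 with it, with a median change of 2.89 log2. At 3 h the median was 1.78 log2, and 1 and 4 of the 12 rose in these fits. Mx1, an antiviral GTPase, was higher by 4.33 log2 at 6 h and Ifit3 by 4.49. Hepatocyte markers averaged 12.9 to 13.1 log2 on every array. Array medians ran from 5.16 to 5.21 log2, and correlations between arrays from 0.979 to 0.997, with 0 identical pairs.

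Over all probe sets, arrays of the same number and time deviated together from their group means, with correlations of 0.651 to 0.829 in 6 pairs. Arrays of different numbers correlated between -0.562 and -0.0747. Each comparison is therefore given from limma without and with the replicate number as a block, p-values being adjusted over all 31042 probe sets and called under 0.05.

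Promoter sequences of 31 of the 42 genes were found in RefSeq, build GRCr8, as the 250 bases before the annotated start. They were looked up by the array's symbol of each gene, so C2 and Cfb, which have none of their own, were not searched. Where several starts were listed, the most upstream was taken. Those of 5 genes, picked after the results were known, are shown. C6 and C1r had the largest changes after interferon at 6 h. Lcn2 and C4bpb had wide spreads between replicate numbers, as had a dimmer probe set of Fga. Other genes with wide spreads, such as A2m and Mbl2, are not shown. Capitals mark matches, on either strand, to the core motifs searched, and overlapping matches run together.
C6, chr2:55573383-55573632, plus strand: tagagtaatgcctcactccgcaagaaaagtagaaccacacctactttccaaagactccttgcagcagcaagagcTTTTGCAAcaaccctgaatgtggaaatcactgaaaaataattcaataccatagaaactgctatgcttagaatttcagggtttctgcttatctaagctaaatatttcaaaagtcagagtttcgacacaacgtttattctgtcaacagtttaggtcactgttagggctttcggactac
C1r, chr4:159098763-159099012, plus strand: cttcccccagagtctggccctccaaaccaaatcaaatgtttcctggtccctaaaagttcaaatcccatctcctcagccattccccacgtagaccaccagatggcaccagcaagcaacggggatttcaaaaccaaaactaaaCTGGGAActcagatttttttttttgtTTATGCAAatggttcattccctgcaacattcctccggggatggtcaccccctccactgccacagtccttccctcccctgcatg
Lcn2, chr3:36081781-36082030, minus strand: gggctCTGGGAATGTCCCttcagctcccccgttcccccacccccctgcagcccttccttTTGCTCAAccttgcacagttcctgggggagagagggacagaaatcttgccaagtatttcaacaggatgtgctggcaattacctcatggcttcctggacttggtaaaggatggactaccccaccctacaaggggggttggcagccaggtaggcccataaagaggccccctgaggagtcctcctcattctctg
C4bpb, chr13:44683782-44684031, minus strand: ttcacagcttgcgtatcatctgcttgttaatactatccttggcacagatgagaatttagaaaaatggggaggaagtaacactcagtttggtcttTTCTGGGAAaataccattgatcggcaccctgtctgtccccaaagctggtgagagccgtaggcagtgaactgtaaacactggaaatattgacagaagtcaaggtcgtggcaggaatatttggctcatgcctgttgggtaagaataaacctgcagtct
Fga, chr2:170671919-170672168, plus strand: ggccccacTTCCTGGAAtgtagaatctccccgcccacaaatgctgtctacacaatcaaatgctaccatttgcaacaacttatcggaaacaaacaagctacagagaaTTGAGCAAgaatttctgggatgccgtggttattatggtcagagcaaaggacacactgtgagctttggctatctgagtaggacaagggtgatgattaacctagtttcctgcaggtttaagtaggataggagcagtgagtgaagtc
The capitals in C6 are a C/EBP core, whose first base lies at -176 from the annotated start. In C1r they are an interleukin-6 response element core at -109 and a C/EBP core at -83. In Lcn2 the interleukin-6 core at -245 overlaps NF-kB cores on both strands, the first at -243, and a C/EBP core follows at -191. In C4bpb a gamma-activated sequence at -156 contains the interleukin-6 core. In Fga the capitals are a gamma-activated sequence at -242 and a C/EBP core at -144.

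The interferon-stimulated response element core, searched as GAAA and GAAA with any 2 bases between them, was in 0 of the 31 windows and in 3.28% of 27457 windows of the same length over the genome. The gamma-activated sequence, TTCNNNGAA, was in 6 of the 31 and in 7.5% of all. The interleukin-6 response element core, CTGGGAA, was in 11 of 31 against 9.32%, and the C/EBP core, TTGCNNAA, in 15 of 31 against 9.21%. The NF-kB core, searched as GGGA and CC with any 4 bases between them, was in 6 of 31 against 16.8%. CTGGGAA can overlap the gamma-activated sequence and the NF-kB core. A match describes letters in this window alone, and binding was not measured.

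Interferon-treated and control cultures differed little in most of these genes. At 3 h the changes ran from -0.16 to 0.18 log2 with a median of -0.01, the same as over all probe sets. The median size of the change was 0.0237 log2, against 0.0744 over all probe sets. In limma without the block, 0 of 40 were called at 3 h, where 0.00644% of all probe sets were, and 0 of 40 had an unadjusted p under 0.05, against 2.95% of all. With the block the call was again 0 of 40, against 0.0966% of all, and again 0 by unadjusted p, against 6.75%. The 95% interval from the fit with the block lay within 0.5 log2 of 0 for 40 of the 40 genes and for 93.8% of all probe sets. These values are for the brightest probe set of each gene. A dimmer probe set of Masp2, at 6.54 log2 on average, differed by -0.42 log2 at 3 h. It was not called (limma adjusted p = 0.627 with the block, interval -0.73 to -0.10). The brighter Masp2 probe sets differed by 0.02 and -0.03.

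At 6 h, limma without the block called 0 of 40, against 0.387% of all probe sets, and 1 had an unadjusted p under 0.05, against 3.69%. With the block 1 of 40 was called, against 1.1% of all, a share close to the background. That gene was C6. The changes at 6 h ran from -0.20 to 0.82 log2, with a median of -0.01 against -0.02 over all probe sets. For 38 of 40 genes the interval lay within 0.5 log2 of 0, C6 and C1r being the others. Over all probe sets, 92.4% met this bound. By unadjusted p under 0.05 with the block, 4 of 40 stood out, namely C6, C1r, C1s and A2m, against 8.18% of all.

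**Figure D1:**
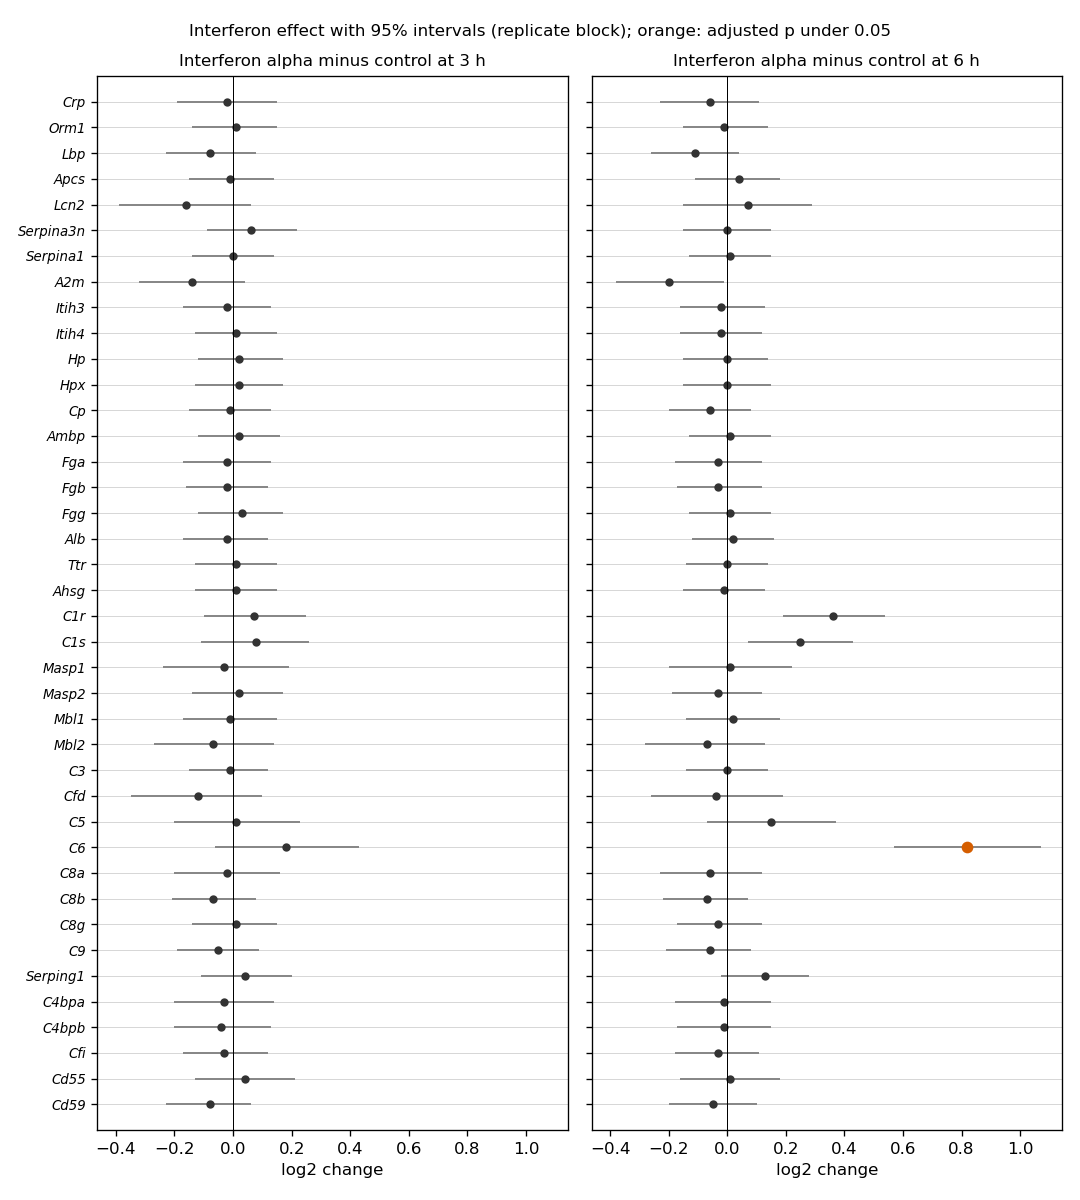
Change in log2 units between interferon alpha and control at 3 h (left) and 6 h (right) for the 40 genes, in order of their roles. Points are changes, bars are 95% intervals from the fit with the replicate block, and orange marks an adjusted p under 0.05. Points at 3 h lie between -0.16 and 0.18, and C6 at 6 h stands at 0.82.

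C6 is the component of the membrane attack complex that binds C5b and recruits C7. Control arrays at 6 h read 9.97, 9.42 and 9.49 log2 for replicates 1, 2 and 3, and interferon arrays at 6 h read 10.44, 10.51 and 10.39. The 3 treated arrays lay above all 3 controls, and they were closer together, with an SD of 0.06 against 0.30. C6 was 1.76-fold higher at 6 h, by 0.82 log2 with a standard error of 0.11 in the fit with the block. The limma adjusted p was 0.00305 with the block and 0.0696 without it. The rise was present in each numbered pair, at 0.47, 1.09 and 0.90 log2.

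At 3 h the C6 controls read 10.01, 9.54 and 9.59 log2 and the treated arrays 10.00, 9.77 and 9.93. These groups overlapped, and the change of 0.18 log2 was not called (limma adjusted p = 0.804 with the block). The difference between the changes at 6 h and 3 h was 0.63 log2, with a limma adjusted p of 0.593 with the block and 1 without. In that comparison 0 of the 40 genes were called in either fit, where 0% of all probe sets were. By unadjusted p under 0.05, 1 of 40 stood out without the block and 2 with it, against 2.17% and 4.72% of all.

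Averaged over both times, C6 was higher by 0.50 log2 (limma adjusted p = 0.00827 with the block, 0.145 without). It was the 1 gene of 40 called with the block, against 1.1% of all probe sets, and 0 of 40 were called without it, against 0.435%, C6 being the 1 gene with an unadjusted p under 0.05, against 4.48% of all. With the block 4 of 40 had one, against 10.8%. The call at 6 h held with the block when any 1 of the 12 arrays was left out, with changes of 0.70 to 0.95 log2 and adjusted p of 0.00194 to 0.0331. Without the block, leaving out replicate 1 of the 6 h controls gave an adjusted p of 0.0179, and leaving out replicate 1 of the 3 h controls gave 0.0461. With any other array left out, C6 was not called at 6 h without the block. Nor was it called in limma with only the groups compared (adjusted p = 0.249) or after quantile normalization (0.0913). Limma-trend gave 0.0709, and leaving out dim probe sets gave 0.0516.

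C1r and C1s are the proteases that, joined to C1q, start the classical pathway. For C1r the 6 h controls read 11.51, 11.37 and 10.96 log2 and the treated arrays 11.70, 11.90 and 11.33. The groups overlapped, although within each number the treated array was the higher, by 0.19, 0.53 and 0.37 log2. The change was 0.36 log2 with a 95% interval of 0.19 to 0.54 in the fit with the block, and it missed the call (limma adjusted p = 0.066). With each of the 12 arrays left out in turn it passed in 1 setting, without replicate 1 of the 6 h interferon arrays (adjusted p = 0.0417 with the block). Over those settings the change ran from 0.28 to 0.43 log2 and the adjusted p up to 0.35.

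For C1s the 6 h controls read 11.73, 11.67 and 11.34 log2 and the treated arrays 11.98, 12.01 and 11.51. The groups overlapped here too, and the pairs differed by 0.25, 0.33 and 0.17 log2. The change of 0.25 log2 was not called (limma adjusted p = 0.357 with the block, interval 0.07 to 0.43). At 3 h C1r read 11.54, 11.40 and 11.04 in controls and 11.56, 11.52 and 11.12 after interferon. C1s read 11.96, 11.66 and 11.55 in controls and 11.93, 11.91 and 11.57 after interferon at 3 h. Changes at 3 h were 0.07 log2 for C1r and 0.08 for C1s.

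The C1 inhibitor gene Serping1, whose product blocks C1r and C1s, differed by 0.13 log2 at 6 h (limma adjusted p = 0.677 with the block). C5, which supplies the first piece of the membrane attack complex, differed by 0.15 (adjusted p = 0.745 with the block). C8a, C8b, C8g and C9, the later pieces of the same complex, differed at 6 h by -0.03 to -0.07 log2. C3, the central component cut by every pathway, differed by 0.00 log2 at 6 h, and the mannose-binding lectin genes Mbl1 and Mbl2 by 0.02 and -0.07. None of these genes was called at 6 h in either fit.

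The 4 probe sets shared by Cfb and C2 had means of 12.12, 10.0, 9.82 and 9.64 log2. At 6 h the brightest differed by 0.04 log2 between interferon and control. The others differed by 0.37, 0.28 and 0.28, with limma adjusted p of 0.0526, 0.295 and 0.295 with the block. None was called, and probe sets carrying both names gave unequal changes.

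The acute phase proteins showed no call after interferon in either fit. The 10 positive acute phase genes differed by -0.20 to 0.07 log2 at 6 h and the 3 fibrinogen chains, which form the clot, by -0.03 to 0.01. The 4 genes for haem and metal binding, Hp, Hpx, Cp and Ambp, differed by -0.06 to 0.01. The carriers Alb, Ttr and Ahsg differed by -0.01 to 0.02. A2m, the broad protease inhibitor that is a major acute phase protein in the rat, had the most negative change at 6 h, -0.20 log2, and was not called (limma adjusted p = 0.567 with the block, interval -0.38 to -0.01).

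Many of these genes lay near the upper end of the array's range, where an array can saturate and narrow a difference. The brightest probe set of the array belonged to Alb, at 14.67 log2 on average, and 43 probe sets lay within 1 log2 of it. Of these, 13 belonged to 12 genes described here: Alb, Hp, Orm1, Serpina1, Ambp, C3, Itih3, Ttr, Hpx, Fgg, Ahsg and Fgb. Their changes after interferon ran from -0.02 to 0.03 log2 at 3 h and from -0.03 to 0.02 at 6 h. Over the 28 dimmer genes, changes at 6 h ran from -0.20 to 0.82. Whether saturation narrowed these differences was not tested.

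Alb, the main plasma protein, read 14.61 to 14.71 log2 on the 12 arrays, which is also the range of the highest value on an array. These 12 readings held 10 distinct values as deposited. Hp, the haemoglobin-binding haptoglobin, read 14.00 to 14.27. Orm1, the drug-binding alpha-1-acid glycoprotein, read 14.06 to 14.28, and Serpina1, the elastase inhibitor alpha-1-antitrypsin, 13.94 to 14.13. The treated and control arrays overlapped at both times in Hp, Orm1 and Serpina1. In Alb they overlapped at 6 h, and the change of -0.02 log2 at 3 h was not called. At the other end, Cd55, a membrane regulator that speeds the decay of C3 convertases, averaged 3.72 log2, under the lower quartile of every array, which was 3.84 to 3.93. Cfd, the protease that cuts factor B, averaged 4.50, under every array median.

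**Figure D2:**
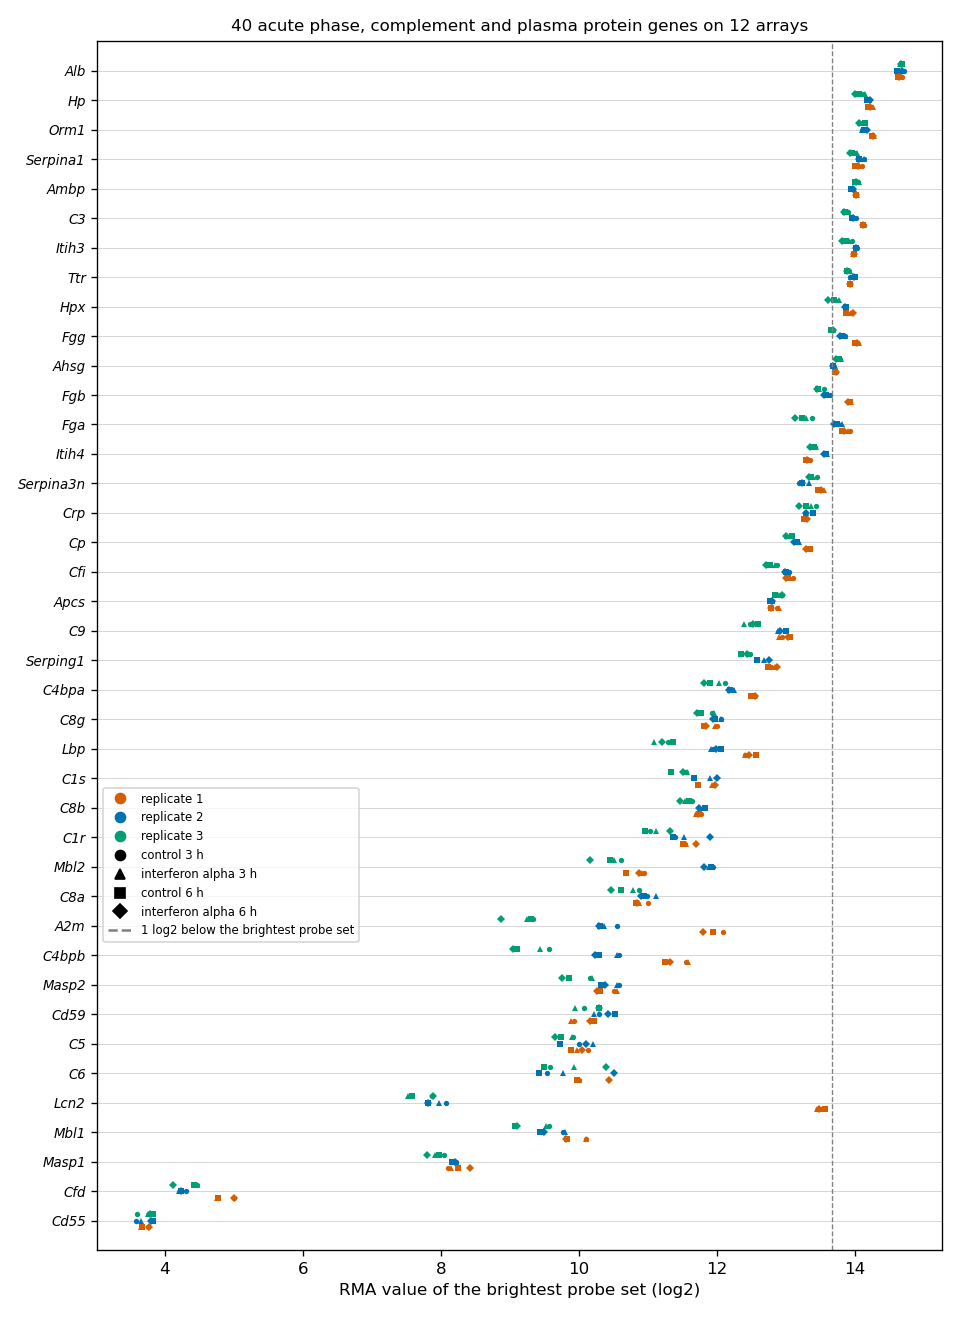
RMA value in log2 units of the 40 genes on each of the 12 arrays, ordered by their mean. Colour gives the replicate number, the symbol gives the group, and the dashed line lies 1 log2 below the brightest probe set. Alb is at the top with 14.61 to 14.71, and the points of Lcn2 fall in sets far apart, with replicate 1 at 13.46 to 13.57.

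The widest differences among these genes lay between replicate numbers. An F test of the replicate terms in limma, added after the data were examined, called 26 of 40 genes, against 29.9% of all probe sets. These genes are mostly bright. With dim probe sets left out, Cd55 and Cfd among them, the test called 28 of the remaining genes, against 56.6% of the probe sets kept. The highest minus the lowest mean of a number had a median of 0.286 log2 in the 40 genes and 0.174 over all probe sets. It was over 1 log2 in 5 of 40 and in 3.2% of all. Of the 26 genes called, 20 were highest on the arrays numbered 1 and 22 were lowest on those numbered 3. Over the 9282 probe sets called, 1990 were highest on the arrays numbered 1 and 3785 lowest on those numbered 3. Numbers are names, and carry no order.

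Lcn2, the iron-siderophore binding protein lipocalin 2, had the widest spread. On the arrays numbered 1 it read 13.51 in the 3 h control, 13.46 after 3 h of interferon, 13.57 in the 6 h control and 13.48 after 6 h of interferon. On those numbered 2 it read 8.08, 7.97, 7.82 and 7.82 in the same order, and on those numbered 3 it read 7.87, 7.53, 7.58 and 7.89. Every array numbered 1 lay above every other array, whatever the treatment. The means were 13.50, 7.92 and 7.72 log2, so that the highest was 55.2-fold above the lowest (limma F test, adjusted p = 1.52e-11). This range ranked 3 among the 31042 probe sets. Between interferon and control Lcn2 differed by -0.16 log2 at 3 h and 0.07 at 6 h.

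A2m, the protease inhibitor named above, read 12.09, 11.95, 11.95 and 11.80 log2 on the arrays numbered 1, in the same order of groups. It read 10.55, 10.37, 10.31 and 10.30 on those numbered 2 and 9.34, 9.25, 9.31 and 8.88 on those numbered 3. The 3 sets did not overlap. Their means differed up to 6.74-fold (limma F test, adjusted p = 3.54e-09). This range ranked 51 among all probe sets.

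C4bpb encodes the beta chain of C4b-binding protein, the regulator that clears C4b. It read 11.55, 11.59, 11.25 and 11.33 log2 on the arrays numbered 1, in the order just used. It read 10.59, 10.56, 10.30 and 10.24 on those numbered 2 and 9.57, 9.44, 9.11 and 9.05 on those numbered 3. The sets were again separate, with means up to 4.40-fold apart (limma F test, adjusted p = 9.06e-09). C4bpa, the alpha chain of the same protein, had means of 12.53, 12.21 and 11.97 log2 (adjusted p = 1.92e-04). Its range was 0.56 log2, against 2.14 for C4bpb.

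Mbl2, a mannose-binding lectin of the lectin pathway, was highest on the arrays numbered 2, with means of 10.85, 11.89 and 10.44 log2 (limma F test, adjusted p = 5.97e-07). Lbp, which hands bacterial lipopolysaccharide to CD14, had means of 12.46, 11.98 and 11.24 (adjusted p = 2.53e-07). Cfd read 4.12 to 5.01 over the 12 arrays, with means of 4.89, 4.25 and 4.37 (adjusted p = 4.02e-04). The 3 fibrinogen chain genes were called as well: Fga had means of 13.88, 13.75 and 13.26 log2, and Fgb and Fgg had ranges of 0.43 and 0.35. A second, dimmer probe set of Fga, at 10.39 log2 on average, had a range of 2.07, against 0.62 for the brighter one.

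By role, the F test called 5 of 10 positive acute phase genes, 2 of 4 for haem and metal binding, 3 of 3 fibrinogen chains and 0 of 3 carriers. It called 6 of 6 in the classical and lectin pathways, 2 of 2 for C3 and Cfd, 3 of 6 in the terminal pathway and 5 of 6 regulators. Of the 12 genes near the upper end of the range 4 were called, and of the 28 dimmer genes 22. Over all probe sets the share called was 29.9%, and it was 56.6% among those kept when dim ones were left out. Crp, the pentraxin that is a classic acute phase marker in humans, had means of 13.28, 13.31 and 13.33 log2 and was not called. C6 was not called either (limma F test, adjusted p = 0.075).

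**Figure D3:**
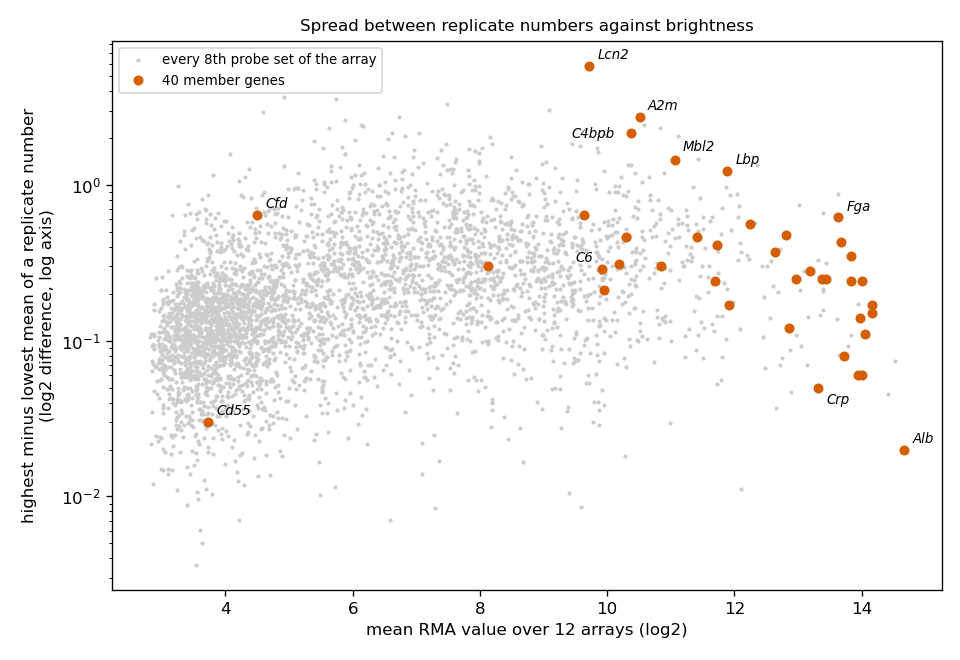
Highest minus lowest mean of a replicate number, on a log axis, against the mean RMA value in log2 units. Orange points are the 40 genes and grey points every 8th probe set of the array. Lcn2 stands highest at 5.79 log2, and Alb is at the lower right with 0.02.

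Among genes of acute phase signalling, listed separately, 15 of 28 measured differed between replicate numbers in the same test. That test called 29.9% of all probe sets, and 56.6% of those kept when dim ones were left out. Nfkbiz, an NF-kB cofactor induced by interleukin-1, had means of 8.31, 7.02 and 5.42 log2 (adjusted p = 9.06e-09). Il1r1, the interleukin-1 receptor, had means of 8.98, 8.34 and 7.87 (adjusted p = 1.33e-05). Of 22 other acute phase genes measured 13 differed, among them Steap4, a metalloreductase, with means of 10.30, 7.77 and 7.20 log2. Other lists gave similar counts, with 12 of 21 apolipoprotein and carrier genes and 10 of 19 other complement genes. Of 12 interferon reference genes 0 differed (limma F test), 2 had an unadjusted p under 0.05, and the smallest adjusted p was 0.053, for Oas1a. Their spread was no narrower: the median range between replicate numbers was 0.353 log2, against 0.358 in the signalling genes and 0.286 in the 40 genes.

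Markers of Kupffer cells, the liver macrophages, moved with the replicate numbers too. Of 10 such markers measured, out of 14 listed, 9 differed in the F test. Their mean was 7.09 to 7.19 log2 on the arrays numbered 1, 5.98 to 6.08 on those numbered 2 and 6.13 to 6.27 on those numbered 3. C1qa, a chain of C1q made by macrophages, had means of 6.98, 4.65 and 5.25 log2, and Clec4f, a Kupffer cell lectin, 6.56, 5.17 and 5.53. Neutrophil markers, 7 measured of 10 listed, averaged 3.65 to 3.92 on every array, and all 7 averaged less than the median probe set. Of these 7, 2 differed in the F test. Hepatocyte markers differed in 5 of 11 and lymphocyte and NK cell markers in 0 of 9. The same test called 29.9% of all probe sets. Of 8 liver endothelial markers measured 4 differed, with means of 4.61 to 4.85 log2 on the arrays numbered 1, 4.28 to 4.31 on those numbered 2 and 4.29 to 4.43 on those numbered 3. Of 6 cholangiocyte markers 2 differed, with means of 5.60 to 5.66, 5.57 to 5.73 and 6.06 to 6.17 in the same order. Of 10 stellate cell and fibroblast markers 2 differed. In these bulk samples a different number of cells of a type and a different amount of RNA per cell cannot be told apart. The part of other cells in the spread between replicate numbers was not tested. Between 6 h controls and 6 h interferon arrays the Kupffer mean ranged from 6.04 to 7.15 and from 6.08 to 7.18.

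**Figure D4:**
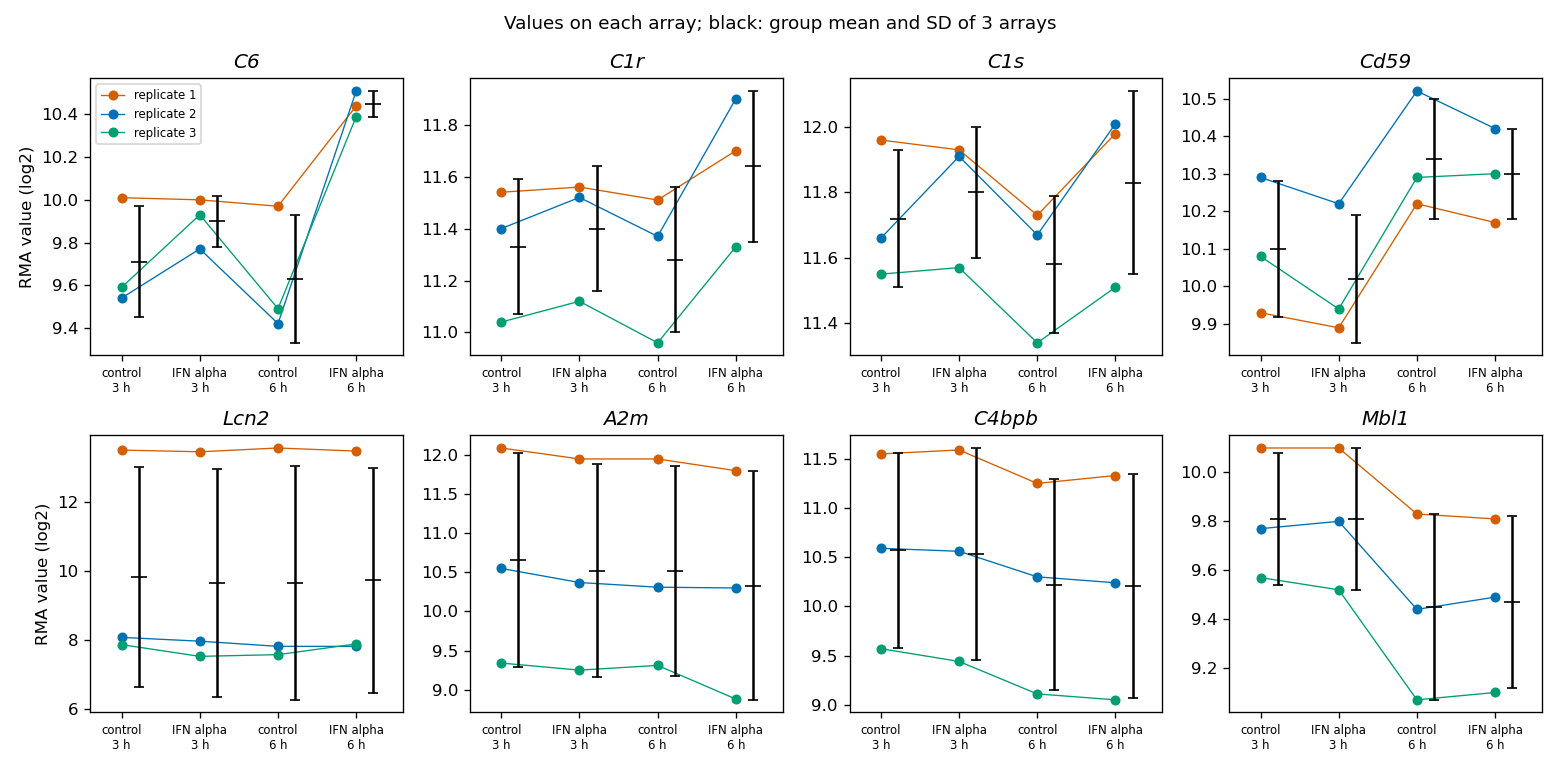
RMA values in log2 units on each array for 8 genes, by group, where IFN alpha is interferon alpha. Colours and lines join arrays of the same replicate number, and black marks give the group mean and SD of 3 arrays. In C6 the treated arrays at 6 h stand at 10.39 to 10.51, above their controls. In A2m and C4bpb the coloured lines lie apart, and in Lcn2 the line of replicate 1 lies far above the others.

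Time in culture was compared between the 6 h and the 3 h controls. Of the 40 genes 32 had a lower and 8 a higher mean at 6 h. Over all probe sets 14691 were lower and 16351 higher. The median difference was -0.05 log2 in the 40 genes, against 0.01 over all probe sets. In limma without the block 0 of 40 were called, against 0.19% of all, and 0 had an unadjusted p under 0.05, against 10.1% of all. With the block 3 of 40 were called, against 8.15% of all, and 5 of 40 had an unadjusted p under 0.05, against 21.9%. Mbl1 and C4bpb were lower at 6 h, as were 4.82% of all probe sets, and Cd59 was higher, as were 3.33%.

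Mbl1, the second mannose-binding lectin gene, read 10.10, 9.77 and 9.57 log2 in the 3 h controls and 9.83, 9.44 and 9.07 in the 6 h controls. The groups overlapped, but each number fell, by 0.27, 0.34 and 0.50. The mean difference was -0.37 log2 (limma adjusted p = 0.0119 with the block, 0.679 without). With the block the call was lost without replicate 3 of the 3 h controls (adjusted p = 0.06) or replicate 3 of the 6 h controls (0.0589). The interferon arrays read 10.10, 9.80 and 9.52 at 3 h and 9.81, 9.49 and 9.10 at 6 h, close to their controls.

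C4bpb, whose values are given above, differed between 6 h and 3 h controls by -0.35 log2 (limma adjusted p = 0.0165 with the block, 0.948 without). Its numbered pairs differed by -0.30, -0.30 and -0.46. With the block the call was lost without replicate 3 of the 3 h controls (adjusted p = 0.0798), replicate 1 of the 6 h controls (0.0744) or replicate 3 of the 6 h controls (0.0664). Without the block the sign itself turned when replicate 1 of the 3 h controls or replicate 3 of the 6 h controls was left out, to 0.14 and 0.20 log2, since the numbers lie so far apart.

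Cd59, the membrane inhibitor of the attack complex, read 9.93, 10.29 and 10.08 log2 in the 3 h controls and 10.22, 10.52 and 10.29 in the 6 h controls. The groups overlapped and each number was higher at 6 h, by 0.29, 0.23 and 0.21. The difference of 0.24 log2 had a limma adjusted p of 0.0486 with the block and 0.583 without. With the block it was lost whichever of the 12 arrays was left out, at adjusted p of 0.0531 to 0.16. The interferon arrays read 9.89, 10.22 and 9.94 at 3 h and 10.17, 10.42 and 10.30 at 6 h.

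Masp2, the protease that acts on C4 and C2 in the lectin pathway, read 10.51, 10.58 and 10.17 log2 in the 3 h controls and 10.31, 10.33 and 9.86 in the 6 h controls. The groups overlapped, and the difference of -0.25 log2 was not called (limma adjusted p = 0.0536 with the block). A dimmer probe set of Masp1, the partner protease, at 6.53 log2 on average, fell by 0.44 (adjusted p = 0.0218 with the block), while its brightest probe set differed by 0.01. Of the 8 genes with several probe sets, the brightest had the smallest range between replicate numbers in 4, namely Alb, Cd55, Cp and Fga.

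Genes of related lists were read the same way. Of 22 other acute phase genes measured, 3 were higher and 3 lower at 6 h than at 3 h in controls with the block, against 8.15% of all probe sets in either direction, and 0 without it, where 2 had an unadjusted p under 0.05. Steap4 fell by 1.17 log2 (limma adjusted p = 8.76e-04 with the block), Hamp, the iron hormone hepcidin, by 0.50 and Itih2 by 0.25. Angptl4, an inhibitor of lipoprotein lipase, was higher by 0.64 log2, Il1rn, the interleukin-1 receptor antagonist, by 0.40 and Mug1, a relative of A2m, by 0.30. At 6 h of interferon 0 of them were called in either fit of limma, and 0 without and 1 with the block had an unadjusted p under 0.05.

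Of 28 signalling genes measured, 1 rose after interferon at 6 h with the block, where 1.1% of all probe sets were called. It was Fkbp5, a co-chaperone of the glucocorticoid receptor, by 0.52 log2 (limma adjusted p = 0.0367 with the block, 0.151 without). In 6 h against 3 h controls Il1r1 fell by 1.06 log2 and Nfkbiz by 0.65, and Rela, an NF-kB subunit, was higher by 0.40 with the block. Between control times 8.15% of all probe sets were called with the block, in either direction. Of 19 other complement genes measured, 12 averaged less than the median probe set, and C1qc, which the Kupffer cell list also holds, fell by 0.53 log2 in the 6 h controls (adjusted p = 0.00895 with the block). Of 21 apolipoprotein and carrier genes Igfals fell by 0.52 (adjusted p = 0.00351 with the block). Of 18 coagulation genes 0 were called in any of the 5 comparisons by limma, the smallest adjusted p being 0.662 without and 0.0778 with the block. By unadjusted p under 0.05 with the block, 1 stood out at 6 h of interferon and 3 between control times. The shares over all probe sets were 8.18% and 21.9%. The brightest were Serpinc1 at 13.4 log2 and Plg at 13.3.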

How the data were processed

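Total RNA of 12 cultures was hybridised to Affymetrix arrays, from 5 ug of RNA per the labels' protocols. What the authors deposited are RMA values on a log2 scale. The submitters' processing notes name affy and R 2.10.0 for this step. Since RMA equalizes the arrays, a shift common to nearly all transcripts would not show. The sources used here do not give the probe set definition.

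Groups and replicate numbers came from the titles. The 57 control probe sets were left out and 31042 tested with limma 3.58.1 under R 4.3.3 (lmFit, eBayes, 4 groups of 3, 8 residual degrees of freedom, Benjamini-Hochberg over all), then with the replicate number as a block (6 degrees of freedom). The numbers pair the arrays from the data: each of the 6 pairs of the same number and time correlated over 0.1, at 0.651 to 0.829. The script was tested on simulated data. The members and lists were chosen with earlier results of these data known. P-values of the comparisons set a difference against the spread between these samples. Without the block that spread includes differences between replicate numbers, and with the block these are taken out. Having 3 arrays per group limits the precision.

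Of the probe sets, 20826 had 1 symbol in the platform annotation, 436 several and 9780 none listed. Array values were printed for members called in a comparison, the 4 brightest, the 4 largest changes per comparison and the 3 largest spreads within groups; of each other list, for at most 6 called genes or else the 2 brightest. Alternatives were the block, a block within each time, only the groups compared, limma-trend, quantile normalization, dim probe sets left out, the mean of a gene's probe sets, and each array left out. The F test between numbers, its alternatives and leaving out arrays with the block were added after the data were seen.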

Additional observations from a re-analysis of the deposited data

Results flagged for a closer look

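The brightest probe set naming Cfb and C2 together was lower after interferon in each numbered pair at 3 h, by 0.08, 0.07 and 0.13 log2, and higher in each at 6 h, by 0.01, 0.07 and 0.03. It stood out because the pairs had opposite signs at the 2 times, a pattern looked for in every gene described and every shared probe set. The other probe sets naming both genes did not show it, with changes of 0.01, 0.00 and 0.12 log2 at 3 h. The changes of the brightest probe set differed by 0.13 log2 between the times, and limma did not call this difference (adjusted p = 1 without and 0.999 with the block).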

How the results depend on the processing

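The replicate numbers pair the arrays. With the block, probe sets called went from 2 to 30 at 3 h, from 120 to 340 at 6 h, from 135 to 341 averaged and from 59 to 2529 between control times. Members called went from 0 to 1 at 6 h, 0 to 1 averaged and 0 to 3 between control times, and the block changed no other call of members. A block within each time gave 10, 341 and 399 probe sets at 3 h, 6 h and averaged, and 1 member at 6 h and 1 averaged. Only the groups compared gave 0, 69 and 2 probe sets at 3 h, 6 h and between control times. Limma-trend gave 1 at 3 h and 8 between control times, and leaving out dim probe sets gave 1 at 3 h.

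Leaving out each array gave 0 to 23 probe sets at 3 h, 56 to 124 at 6 h, 103 to 156 averaged and 2 to 16 between control times. Members called ran from 0 to 1 at 6 h and averaged, and stayed at 0 in the other comparisons. C4bpb between control times, -0.35 log2 without the block, turned to 0.14 without replicate 1 of the 3 h controls and to 0.20 without replicate 3 of the 6 h controls, within a range of -0.87 to 0.20 over the arrays left out. Genes differing between replicate numbers went from 26 to 13 with the control arrays alone and 12 with the interferon arrays alone. Both subsets have fewer samples, and in each 12.7% of all probe sets were called, against 29.9% with all arrays. With 1 array left out, 22 to 27 genes were called, against 25.7% to 29.2% of all probe sets. Limma-trend gave 35, against 31.6% of all probe sets, and leaving out dim probe sets gave 28, against 56.6% of those kept. Cd55 and Cfd were among the dim ones left out. Lcn2 was called in each of these settings. The cause of these shifts was not tested.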
